A study of Mus musculus with 10 samples.

Results

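Glycosyltransferases and glycan sulfotransferases are the enzymes, most of them in the Golgi, that build the sugar chains of glycoproteins, glycolipids and proteoglycans, and hyaluronan at the plasma membrane. The genes described here are all those whose symbol begins with the prefix of a family: Galnt, Gcnt, Mgat, B3galt, B4galt, B4galnt, B3gnt, St3gal, St6gal, St8sia, Fut, Ext (with Extl), Ndst, Hs2st, Hs3st, Hs6st, Chsy, Chst, and Has1 to Has3. This took 130 of the 25233 genes with a symbol in the deposited table, 2 of which, St8sia3os and Fut4-ps1, carry an enzyme's symbol but name an antisense RNA and a pseudogene. The choice went by names and no measured value, though earlier results of these data were known when it was made. Their expression was compared between 5 libraries of hypertrophied hepatic stellate cells (hypHSCs) and 5 of quiescent hepatic stellate cells (qHSCs), all labelled C57BL/6J and prepared from whole liver by enzymatic perfusion, a gradient and sorting of cells on their own fluorescence.

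The hypHSCs came from mice on the CDAHFD, a high-fat diet without choline and with defined amino acids that is used to induce steatohepatitis and fibrosis: for hypHSC 1 and 2 the diet lasted 13 weeks and the mice were 19 weeks old, and for hypHSC 3, 4 and 5 it lasted 12 weeks and they were 18 weeks old. Mice on standard diet gave the qHSCs and were older, 36 weeks for qHSC 1, 2 and 5 and 34 weeks for qHSC 3 and 4. By the study's methods, hypHSCs were sorted on green and qHSCs on blue fluorescence and the fatty livers were digested under stronger conditions, so diet, age, digestion and gate differ together and cannot be told apart. Preparations of both groups were chosen for RNA quality, and nothing says which mouse each came from, so that p-values measure only the spread between these preparations.

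Glycan synthesis works as an assembly line. GalNAc transferases or oligosaccharide transfer start a chain on the protein, branching enzymes such as the Gcnt and Mgat families decide how many arms it has, galactosyl- and GlcNAc-transferases lengthen the arms, and sialyl- and fucosyltransferases cap them. On proteoglycans the Ext and Chsy enzymes polymerise heparan and chondroitin sulfate, and the Ndst, Hs2st, Hs3st, Hs6st and Chst enzymes then place sulfates that set which growth factors and chemokines the chain can hold. Stellate cells are known as the main makers of liver matrix, proteoglycans included.

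Reads on genes with a symbol numbered 30534719 to 47317028 per library. A gene with 3 reads or fewer was taken as at the floor of detection, which corresponds to 2.25 to 4.54 normalized counts and covers counting error only, since amplified reads are not independent molecules. Normalized counts are reads divided by the size factor of the library, and means are given ± SD over the 5 libraries of a group. Mitochondrial genes took 2.21% to 12.8% of reads in hypHSCs and 1.25% to 1.61% in qHSCs. All libraries are labelled hepatic stellate cells. The 10 stellate cell markers checked (Lrat, Des, Gfap, Reln, Colec11, Hand2, Ngfr, Rgs5, Pdgfrb and Hgf) were all called lower in hypHSCs, with summed normalized counts of 6658 to 13587 there and 392718 to 569073 in qHSCs. Conversely, the 10 macrophage markers (Adgre1, Csf1r, Cd68, Ptprc, Lyz2, C1qa, C1qb, Fcgr1, Cd14 and Mertk) were all called higher, with sums of 1019761 to 1436779 in hypHSCs, none of them at the floor in either group. In qHSCs the macrophage sum was 45603 in qHSC 1 and 101430 in qHSC 4 but 5842 to 9908 in the other 3 libraries. Of the 5 neutrophil markers, 4 were called higher, from sums of 3.75 to 389 in qHSCs to sums of 1853 to 7942 in hypHSCs. All 3 tested cholangiocyte markers were called higher (sums of 4.72 to 56.1 in qHSCs and 436 to 2711 in hypHSCs), as was the 1 tested mesothelial marker. Krt19, the mesothelial marker Gpm6a and the neutrophil markers S100a9 and Retnlg reached 10 normalized counts in no qHSC library. They could be tested through hypHSCs alone, so they had to differ. Of all genes tested, 17.8% were called higher and 21.7% lower. For Kupffer cells 2 of 5 markers were called higher, and the sum in qHSC 4 (37358.5) lay above the 14397 to 26274 of hypHSCs. None of the 6 hepatocyte markers was called. The sums of stellate cell, macrophage, neutrophil and cholangiocyte markers and the mitochondrial share differ between the same groups as every result below. Their part in the results was not tested. In such bulk samples, fewer cells of a type and less RNA per cell cannot be told apart.

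The sequences of 4 genes at the ends of the comparison are shown first, because they are the largest rise (Gcnt1) and fall (Galnt14) on the log2(normalized count + 1) scale used here, and the paralogous pair on chromosome 11 that fell together, of which Hs3st3b1 had the most enzyme reads in qHSCs (Hs3st3b1 and Hs3st3a1). Each line gives the 250 bases before the transcription start in RefSeq, read on the strand of the gene and placed on GRCm39 by an exact and unique match: chr19:17350209-17350458 (minus strand), chr17:74017447-74017696 (minus), chr11:63813111-63813360 (minus) and chr11:64325908-64326157 (plus). Capitals mark 3 motifs on either strand. The TATA box was searched as TATAAA. The GC box was searched as GGGCGG. The last motif was the CCAAT box, searched by those letters. The GC box and CCAAT box of Hs3st3a1 overlap.

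Gcnt1: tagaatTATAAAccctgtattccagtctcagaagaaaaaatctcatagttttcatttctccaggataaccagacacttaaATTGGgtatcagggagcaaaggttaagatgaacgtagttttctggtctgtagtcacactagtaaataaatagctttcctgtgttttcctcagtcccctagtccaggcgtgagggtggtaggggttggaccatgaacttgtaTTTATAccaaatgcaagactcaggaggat
Galnt14: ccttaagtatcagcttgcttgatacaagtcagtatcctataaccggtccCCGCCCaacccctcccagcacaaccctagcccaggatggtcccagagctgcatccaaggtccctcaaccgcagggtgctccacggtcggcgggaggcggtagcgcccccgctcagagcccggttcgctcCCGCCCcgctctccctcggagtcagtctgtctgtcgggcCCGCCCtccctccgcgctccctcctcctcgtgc
Hs3st3b1: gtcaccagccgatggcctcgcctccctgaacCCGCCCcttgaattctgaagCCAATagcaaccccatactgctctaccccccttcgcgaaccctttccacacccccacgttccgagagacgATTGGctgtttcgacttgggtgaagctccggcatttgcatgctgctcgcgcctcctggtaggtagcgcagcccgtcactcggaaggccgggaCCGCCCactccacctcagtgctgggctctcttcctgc
Hs3st3a1: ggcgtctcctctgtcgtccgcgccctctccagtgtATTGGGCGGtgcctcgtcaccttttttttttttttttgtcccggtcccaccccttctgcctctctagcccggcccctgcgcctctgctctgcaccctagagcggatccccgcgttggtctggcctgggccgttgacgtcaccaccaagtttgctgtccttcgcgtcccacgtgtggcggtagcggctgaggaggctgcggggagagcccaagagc

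Gcnt1 has 3 RefSeq starts, and the window shown is that of the start nearest to its entry in the deposited table. That window has a GC content of 40.4% with 2 CpG dinucleotides. It holds TATAAA at position -244 from the start on the strand of the gene and at -29 on the opposite strand, printed as TTTATA. The windows of Galnt14, Hs3st3b1 and Hs3st3a1 have a GC content of 66.4%, 62.4% and 64%, with 19, 17 and 20 CpG dinucleotides, and hold 3, 2 and 1 GC boxes and no TATAAA. Among all 32851 RefSeq promoters of this length 12.4% hold TATAAA, 32.7% the GC box and 33.8% CCAAT. Of the promoters of the enzymes, which numbered 26 for genes called higher, 20 for genes called lower and 37 for tested genes not called, 61.5%, 55% and 59.5% hold the GC box and 26.9%, 35% and 45.9% CCAAT. The letters TGANTCA (AP-1) are in 6.75% of all promoters and in 1 promoter of the genes called higher, 1 of those called lower and 2 of those not called. The letters GAGGAAGT (PU.1) are in 2.44% of all promoters and in 1, 0 and 2 promoters of the same sets. A match is a description of letters and not a binding site. A RefSeq promoter was at hand for 96 of the 130 genes.

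Of the 130 genes, 79 reached 10 normalized counts in 5 or more of the 10 libraries and were tested. A gene was called where the log2 fold change was 1 or more in either direction with an adjusted p up to 0.05 (limma on log2(normalized count + 1), Benjamini-Hochberg over the 14630 genes tested), a scale that understates the change of low genes. On this scale 41 of the 79 (51.9%) were called, beside 39.5% of all genes tested. Higher in hypHSCs were 21 (26.6%), beside 17.8% of all genes, and lower were 20 (25.3%), beside 21.7%. The groups did not overlap for 27 of the 79 (34.2%), 14 higher and 13 lower, beside 39.5% of all genes. The median log2 fold change of the 79 was -0.16, against -0.20 for all genes tested. The called genes moved by a median of 3.67 on the log2 scale regardless of sign, against 2.63 for all genes called, and 23 of them by at least 3 (15 higher, 8 lower). Galnt9, Chst3 and Galnt14 passed the filter through 1 group alone, the other group having no library at 10 normalized counts, so they had to differ. Without these 3, 38 of 76 were called, 19 higher and 19 lower.

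**Figure D1:**
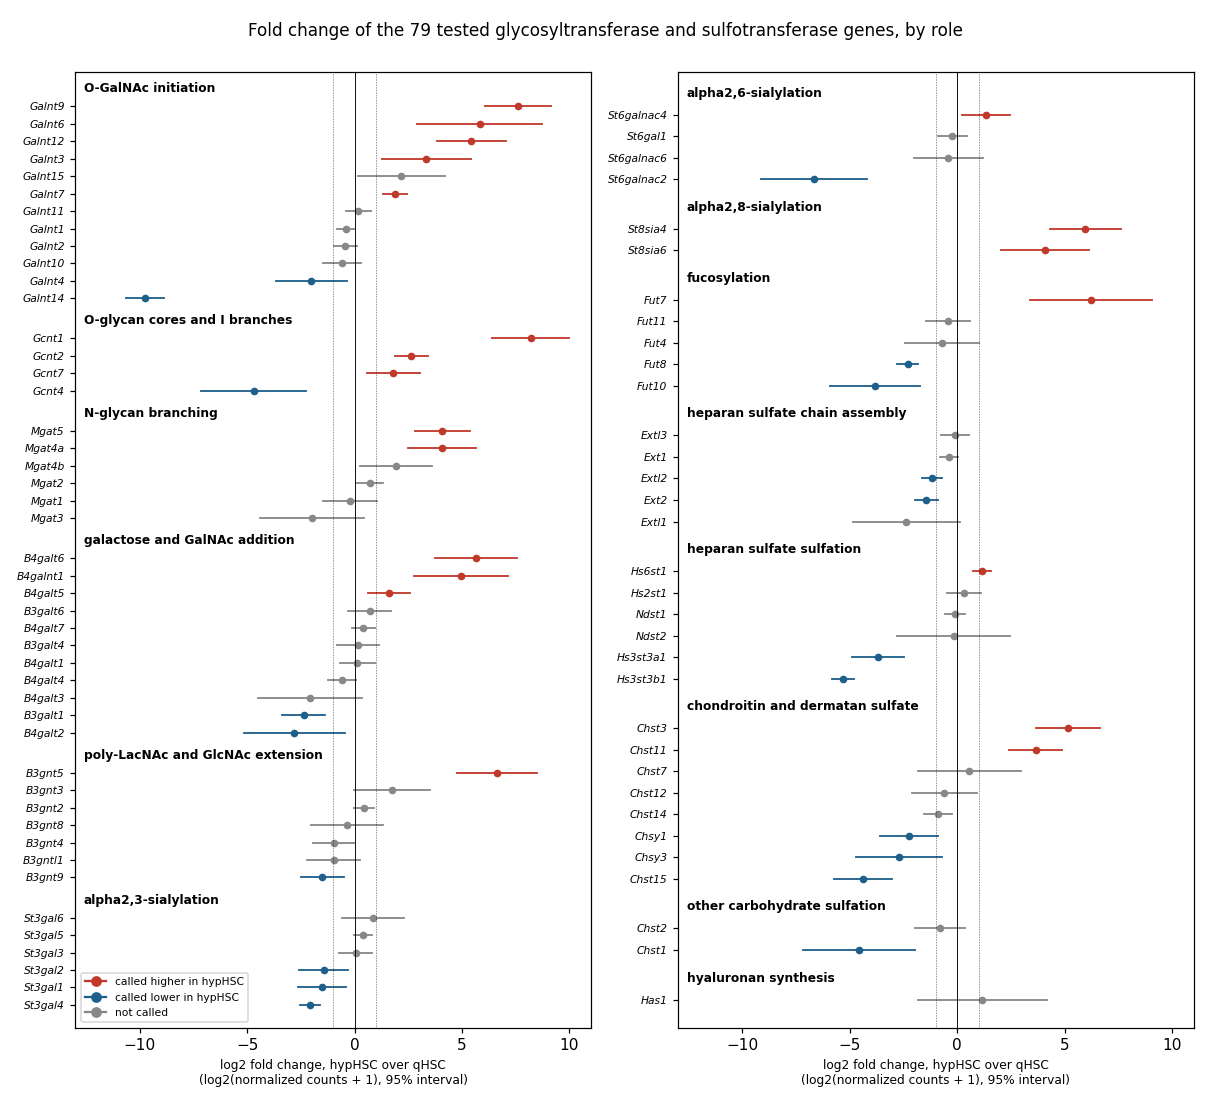
Log2 fold change (hypHSC over qHSC, on the log2(normalized count + 1) scale) with its 95% interval for each of the 79 tested genes, grouped by role, where red was called higher, blue lower and gray not called. Every role with more than 2 tested genes holds genes that were not called or that went the opposite way to others of the role.

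The remaining 51 genes were too low to test. No read was counted in any library for 13 of them, and 22 (those 13 included) had at most 3 reads in every library. The other 29 had more than 3 reads in at least 1 library. B3gnt7, a poly-N-acetyllactosamine enzyme, had 37.7, 232, 240.3, 101 and 0 normalized counts in hypHSC 1 to 5 and 4.53, 0, 0, 0 and 0 in qHSC 1 to 5. Fut2, the secretor fucosyltransferase, had 209, 98.3, 20, 0 and 0 in hypHSCs and was at 0 in the 5 qHSC libraries. Hs6st2, a heparan sulfate 6-O-sulfotransferase, had 88.9, 7.25, 34.1, 22 and 13.6 in hypHSCs and likewise 0 in qHSCs. Hs3st1, the 3-O-sulfotransferase of anticoagulant heparan sulfate, had 174, 138, 89.8, 6.29 and 0 in hypHSCs and 33.5, 2.56, 2.36, 0 and 0 in qHSCs. These 4 were chosen after their values were seen and have no test.

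The enzymes drew a smaller share of the reads in hypHSCs. They took 0.0824% ± 0.0221 of the reads on genes in hypHSCs (SD, n = 5, range 0.0560% to 0.105%) and 0.221% ± 0.0183 in qHSCs (range 0.198% to 0.247%), and the groups did not overlap. A single gene carried much of that difference. Hs3st3b1 took 37.6% to 44.4% of all enzyme reads in qHSCs and 1.3% to 3.83% in hypHSCs, and without it the shares were 0.119% to 0.147% in qHSCs and 0.0538% to 0.104% in hypHSCs, which still did not overlap.

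The heparan sulfate sulfotransferases held the largest level of all. Hs3st3b1 places the rare 3-O-sulfate on glucosamine, the modification that lets herpes simplex virus glycoprotein bind heparan sulfate. It had 28438, 32864, 22890.0, 29495 and 34807 normalized counts in qHSC 1 to 5 and 799, 517, 504, 1002 and 1025 in hypHSC 1 to 5. Every qHSC library lay far above every hypHSC library, the highest of which was hypHSC 5, a 38.6-fold lower mean in hypHSCs and a log2 fold change of -5.32 (SE 0.24, limma, adjusted p = 6.7e-08). Per length, in FPKM (reads scaled to exon length and library depth), its level was 180.8 in qHSCs (SD 20.1), rank 206 of 23722 genes, and 3.6 FPKM in hypHSCs. Hs3st3a1, its paralog with the same known activity, had 1464, 1688, 1089, 1583 and 1646 in qHSCs and 182, 34.2, 72.3, 101 and 431 in hypHSCs, again without overlap, hypHSC 5 being the highest of its group. Its log2 fold change was -3.67 (SE 0.55, limma, adjusted p = 2.4e-04). In both genes the exact two-sided permutation test gave p = 0.00794, the smallest that 5 against 5 libraries allow.

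Both genes lie on chromosome 11 and are transcribed away from each other, Hs3st3b1 on the minus strand at 63775519 to 63813117 and Hs3st3a1 on the plus strand at 64326104 to 64413666 (GRCm39). A run of 401 bases is identical in both, inside a coding exon of each, at chr11:64411136-64411536 and chr11:63780059-63780459. It matters because a read within it can come from either gene, and its first 120 bases are shown on the strand of the genes.

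Hs3st3a1 and Hs3st3b1: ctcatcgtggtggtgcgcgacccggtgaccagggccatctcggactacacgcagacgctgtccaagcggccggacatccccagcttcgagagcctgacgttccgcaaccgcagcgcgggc

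Stretches of 59 bases, 1 read length, shared by both genes made up 10.1% of those of Hs3st3a1 and 7.98% of those of Hs3st3b1, so most of each gene is distinct. How the counting treated reads that fit both is not given in the sources used here, and the lower of both genes, Hs3st3a1, is the less certain. Across the 130 genes 9 pairs shared any such stretch, and Hs3st3a1 with Hs3st3b1 shared the most after St8sia3 with its antisense RNA St8sia3os (1830 stretches).

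Among the other sulfating enzymes of heparan sulfate, 1 was called. Hs6st1, the 6-O-sulfotransferase, was called higher, with means of 1465 ± 234 (hypHSC) and 661 ± 115 (qHSC) normalized counts (SD, n = 5 each) and a log2 fold change of 1.15 (SE 0.18, limma, adjusted p = 3.7e-04). That call was lost with libraries scaled to equal totals (0.80) or on 3 reference genes (0.21). Hs2st1, the 2-O-sulfotransferase, had 222 ± 91.5 and 177 ± 65.2 normalized counts, a log2 difference of 0.31 (SE 0.37, limma, adjusted p = 0.51) that was not called and whose sign depended on the scaling. Ndst1 and Ndst2, the N-deacetylase/N-sulfotransferases that open the modification of the chain, were not called either. For Ndst2 this rested on hypHSC 5, which had 3.02 normalized counts against 261 to 682 in the other hypHSC libraries. The Ndst2 log2 difference was -0.16 with it and 1.201 without it, where the gene was called. As a sum over the 15 genes of this role, the level went, as a description, from 198.8 FPKM ± 20.5 (range 167 to 219) in qHSCs to 13.98 FPKM ± 2.02 (range 11.8 to 17.0) in hypHSCs, and the share of Hs3st3b1 in that sum was 90.9% ± 0.923 in qHSCs and 26.4% ± 8.68 in hypHSCs. In hypHSCs Hs6st1 led instead, with 37.03% ± 3.71.

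The enzymes that polymerise heparan sulfate were all tested, and 2 of the 5 were called lower, where 21.7% of all genes were. Ext2, a subunit of the polymerase, fell from 1487 ± 367 to 549 ± 145 normalized counts (log2 fold change -1.43, SE 0.24, limma, adjusted p = 5.5e-04), and Extl2 from 971 ± 143 to 433 ± 101 (log2 fold change -1.18, SE 0.21, limma, adjusted p = 7.9e-04), with no overlap of libraries in either. Ext1, the partner of Ext2 in the polymerase, had 591 ± 127 in hypHSCs and 766 ± 56.7 in qHSCs and was not called (log2 difference -0.39, SE 0.19, limma, adjusted p = 0.1). Extl3, which starts the chain, differed by -0.100 with a 95% interval of -0.76 to 0.56, and its sign changed without hypHSC 5 (0.04). Per length, the 5 genes summed to 12.0 FPKM ± 1.95 in qHSCs and 5.74 FPKM ± 1.40 in hypHSCs.

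**Figure D2:**
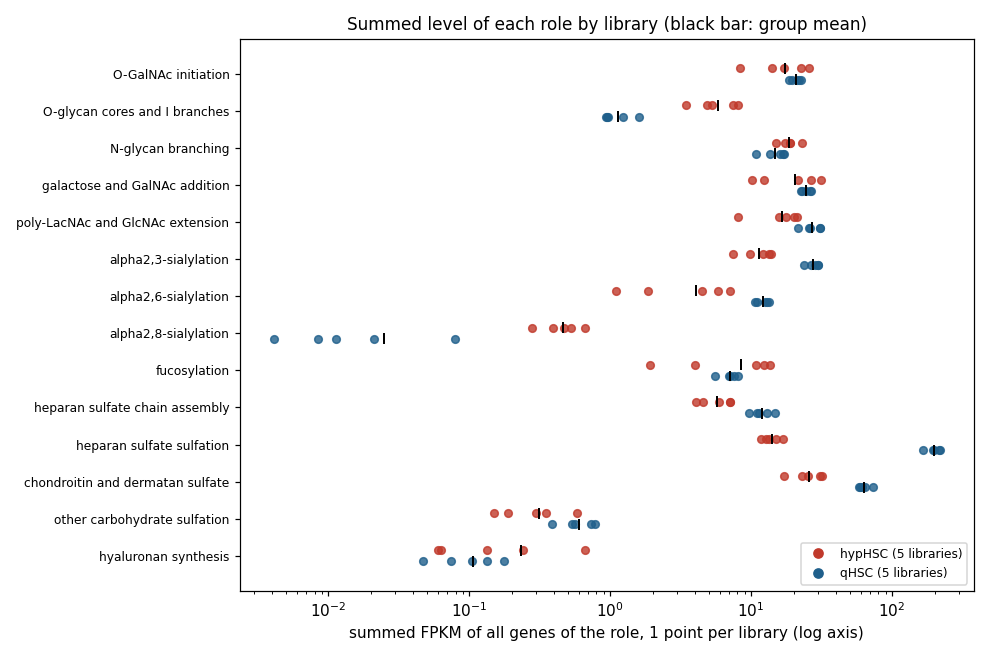
Summed FPKM (log axis) of all genes of each role, 1 point per library, red for hypHSC and blue for qHSC, with a black bar at the group mean. Heparan sulfate sulfation lies at 167 to 219 in qHSCs and 11.8 to 17.0 in hypHSCs, and the summed levels of O-GalNAc initiation overlap between the groups although Galnt14, Galnt9 and Galnt6 belong to it.

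Chondroitin and dermatan sulfate enzymes changed in both directions. Of 9 genes, 8 were tested, 2 were called higher and 3 lower, beside 17.8% and 21.7% of all genes tested. Chst15, which adds a second sulfate to make the disulfated chondroitin sulfate E, had 4553, 5871, 2336, 2845 and 2975 normalized counts in qHSC 1 to 5 and 492, 287, 309, 44.1 and 66.5 in hypHSC 1 to 5. All qHSC libraries lay above all hypHSC libraries, hypHSC 4 and 5 being the lowest, and the log2 fold change was -4.38 (SE 0.62, limma, adjusted p = 1.7e-04). The annotation places 24.1% of its exon bases within another gene, and the reads carry no strand. Chsy1, the chondroitin polymerase subunit, had 3894, 4394, 3515, 4211 and 5352 in qHSCs and 508, 363, 422, 1418 and 4979 in hypHSCs. Here hypHSC 5 lay within the qHSC range while the other 4 hypHSC libraries lay below it, so the groups overlapped and the log2 fold change was -2.25 (SE 0.62, limma, adjusted p = 0.011). The Chsy1 call was lost in the 12-week libraries alone (-1.55) and by edgeR (-1.37). Chsy3, a second subunit, was also called lower, a call that held in 6 of the 10 fits without a single library (lost without hypHSC 4 and without qHSC 1, 3 or 4) and was lost by edgeR.

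Higher in hypHSCs were Chst11, the main chondroitin 4-O-sulfotransferase, and Chst3, the 6-O-sulfotransferase. Chst11 rose from 36.2 ± 24.3 to 362 ± 63.1 normalized counts, with ranges of 6.74 to 64.6 and 260.2 to 432 that did not overlap and a log2 fold change of 3.64 (SE 0.56, limma, adjusted p = 3.1e-04). For Chst3, 4 qHSC libraries were at 0 and qHSC 3 at 2.36 (3 reads), against 28.3, 47.6, 28.3, 32.5 and 144 in hypHSC 1 to 5, a ratio of 119 with a counting interval of 40.7 to 576. Chst12, a further 4-O-sulfotransferase, had the highest FPKM of all 130 genes in hypHSCs (14.1, SD 9.53) and rank 3 of them in qHSCs (18, SD 2.31). Its libraries had 3163, 4245, 4095, 1759 and 218 normalized counts in hypHSCs and 2972, 3032, 2969, 2570.5 and 2482 in qHSCs, so that hypHSC 1 to 3 lay above the qHSC range and hypHSC 4 and 5 below it. It was not called (log2 difference -0.603, SE 0.69, limma, adjusted p = 0.49), and without hypHSC 5 the difference was 0.17. The 9 genes summed to 63.0 FPKM ± 6.37 in qHSCs and 25.6 FPKM ± 5.97 in hypHSCs, with ranges of 57.8 to 73.6 and 17.0 to 31.7.

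Start enzymes of mucin-type O-glycans, the polypeptide GalNAc transferases, held both the largest fall of the family and several of its largest rises. Of 19 genes, 12 were tested, 5 were called higher and 2 lower, beside 17.8% and 21.7% of all genes tested. Galnt14 had 920.5, 947, 472, 1031 and 1153 normalized counts in qHSCs, with qHSC 3 the lowest, and no read in any of the 5 hypHSC libraries. Against the floor of 3 reads per library it was at least 261-fold lower in hypHSCs.

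Galnt9, an isoenzyme known mainly from brain, showed the reverse. It had 459.5, 453, 336, 266 and 52.9 in hypHSC 1 to 5, hypHSC 5 being the lowest, while 4 qHSC libraries were at 0 and qHSC 3 at 2.36 (3 reads), a ratio of 665 with a counting interval of 227 to 3222. Galnt6 had 512, 1390.3, 1554, 288 and 93.8 in hypHSCs and 47.1, 0, 12.6, 77 and 0 in qHSCs. The hypHSC libraries spread more than 10-fold, yet hypHSC 5, the lowest, lay above qHSC 4, the highest qHSC library, and the log2 fold change was 5.83 (SE 1.33, limma, adjusted p = 0.0039). Galnt12 had 141, 112, 156, 132 and 80.2 in hypHSCs and 11.8, 4.26, 1.57, 0 and 0 in qHSCs, far apart in every library, with a log2 fold change of 5.45 (SE 0.73, limma, adjusted p = 1.2e-04). Galnt3, known for protecting the phosphate hormone FGF23, and Galnt7, which acts on peptides that already carry GalNAc, were the other called rises. The Galnt3 call was lost by edgeR and without hypHSC 4 and 5 together, and the Galnt7 call with scaling on 3 reference genes. The widely expressed Galnt1, Galnt2, Galnt10 and Galnt11 were not called, nor was Galnt15. Galnt4 was called lower (log2 fold change -2.005, SE 0.75, limma, adjusted p = 0.046), but 99.96% of its exon bases lie within other genes, Poc1b among them. Reads of these genes cannot be told apart, and the levels of Galnt4 below carry the same limit. The Galnt4 call held in 4 of the 10 fits that left out a single library, and was also lost with no filter on low values, with the replicate block, by edgeR, with the GC correction and without qHSC 1 and 4.

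Per length, the summed level of the 19 GalNAc transferases was 20.7 FPKM ± 1.68 in qHSCs and 17.5 FPKM ± 6.85 in hypHSCs, and the ranges (18.5 to 22.5 and 8.28 to 25.6) overlapped. Galnt4 (32.9%), Galnt1 (21.5%) and Galnt14 (19.7%) held the largest shares in qHSCs, and Galnt7 (28.2%), Galnt1 (18.0%) and Galnt6 (13.7%) in hypHSCs. The hypHSC shares ran between libraries from 22.5% to 30.7% for Galnt7, 9.79% to 37.4% for Galnt1 and 3.49% to 24.9% for Galnt6.

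**Figure D3:**
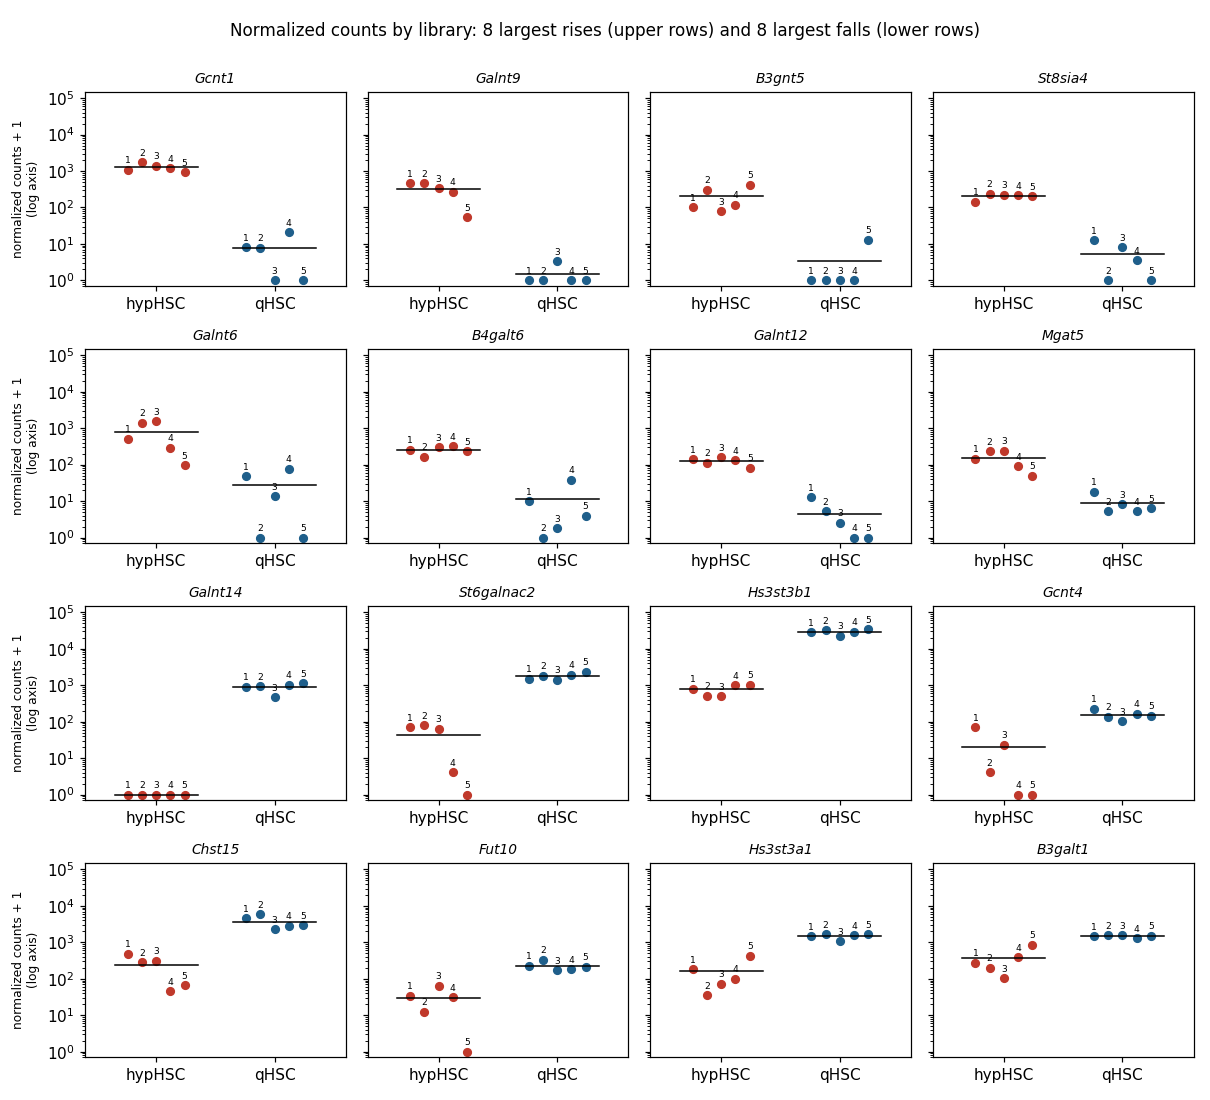
Normalized counts + 1 (log axis) in each library for the 8 largest rises and the 8 largest falls among called genes whose groups did not overlap and whose mean was at least 100 in a group, with the replicate number at each point and a bar at the group mean. Gcnt1 lies at 939 or more in every hypHSC library and at 19.7 or less in qHSCs, and Galnt14 at 0 in every hypHSC library.

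Of the enzymes that branch O-glycans, all 4 that could be tested were called, where 39.5% of all genes were. Gcnt1 makes the core 2 branch on which leukocytes build selectin ligands. It had 1071, 1767, 1410.4, 1172 and 939 normalized counts in hypHSC 1 to 5 and 7.24, 6.82, 0, 19.7 and 0 in qHSC 1 to 5. The lowest hypHSC library (hypHSC 5) stood far above the highest qHSC library (qHSC 4), a 188-fold higher mean in hypHSCs and a log2 fold change of 8.202 (SE 0.81, limma, adjusted p = 1.3e-05). Gcnt4, a second core 2 enzyme, went the other way, with 225, 135, 104, 167 and 145 in qHSCs and 68.7, 3.11, 22.4, 0 and 0 in hypHSCs, no overlap, and a log2 fold change of -4.698 (SE 1.11, limma, adjusted p = 0.0047). Gcnt2, which makes the I branch of blood group antigens, rose from 49.1 ± 16.7 to 305 ± 75.4 (log2 fold change 2.65, SE 0.35, limma, adjusted p = 1.1e-04). Gcnt7 was called higher at low counts, with 46.7% of its exon bases within Rtf2, and the call held in 8 of the 10 fits without a single library. The leading branching enzyme was Gcnt4 in qHSCs, with 69.9% ± 5.07 of the summed FPKM of the role, and Gcnt1 in hypHSCs, with 76.4% ± 3.97, while the sum itself was 1.14 FPKM ± 0.286 in qHSCs and 5.81 FPKM ± 1.90 in hypHSCs.

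N-glycan branching showed 2 called rises and no called fall among 6 tested genes, where 39.5% of all genes were called. Mgat5, which adds the branch that carries galectin ligands, had 143, 228, 237, 90.2 and 48.4 in hypHSCs and 17.2, 4.26, 7.09, 4.28 and 5.25 in qHSCs, hypHSC 5 being the lowest of its group and still above qHSC 1, the highest qHSC library. Its log2 fold change was 4.08 (SE 0.58, limma, adjusted p = 1.7e-04). Mgat4a, the enzyme of the other outer branch, rose from 52.8 ± 50.8 to 564 ± 168 with a log2 fold change of 4.06 (SE 0.72, limma, adjusted p = 7.8e-04). Mgat1 and Mgat2, which act before them on every complex N-glycan, were not called. Mgat2, rank 2 in FPKM among the 130 genes in hypHSCs (11.4, SD 3.74), had 1610.3, 809, 689, 1444 and 1842 normalized counts there and 758, 789, 797, 703 and 609.9 in qHSCs (log2 difference 0.71, SE 0.28, limma, adjusted p = 0.055), with hypHSC 3 within the qHSC range, hypHSC 2 just above it and hypHSC 1, 4 and 5 far above. Mgat3, which adds the bisecting residue, had 35.3 ± 44.4 and 56.5 ± 22.3 and was not called (log2 difference -1.96, SE 1.10, limma, adjusted p = 0.16).

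Galactosyl- and GalNAc-transferases of glycolipids were among the rises. B4galt6 and B4galt5 both make lactosylceramide, the start of most glycosphingolipids. B4galt6 had 257, 166, 300.2, 314 and 229.9 in hypHSC 1 to 5 and 9.05, 0, 0.79, 37.6 and 3 in qHSCs, qHSC 4 being the highest of its group, and a log2 fold change of 5.67 (SE 0.87, limma, adjusted p = 2.9e-04). B4galt5, rank 3 in FPKM in hypHSCs (7.33, SD 5.00), had 1244, 2405, 1898, 633 and 413 and 360.2, 377, 472, 371 and 244, with hypHSC 5 inside the qHSC range and a log2 fold change of 1.596 (SE 0.45, limma, adjusted p = 0.012). The B4galt5 call was lost at equal totals (1.24), on 3 reference genes (0.66), in the 12-week libraries (1.15) and without qHSC 1 and 4 (1.62). B4galnt1, the synthase of gangliosides GM2 and GD2, had a mean of 280.4 ± 194 in hypHSCs against 8.96 ± 9.97 in qHSCs (log2 fold change 4.95, SE 0.99, limma, adjusted p = 0.0018). Its ranges overlapped, since hypHSC 5 (24.2) lay under qHSC 4 (25.7), and 45.3% of its exon bases lie within other genes.

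B3galt1, which makes the type 1 chain end of glycoproteins, was called lower, with 1477, 1585, 1550.2, 1278 and 1531 in qHSCs, 275, 199, 103, 389 and 862 in hypHSCs, no overlap and a log2 fold change of -2.37 (SE 0.45, limma, adjusted p = 0.0013). B4galt2 was also called lower, from 49.5 ± 30.5 to 13.8 ± 15.3 normalized counts (log2 fold change -2.805, SE 1.07, limma, adjusted p = 0.049). This call held in 2 of the 10 fits without a single library and was not made by edgeR or DESeq2, nor with a pseudocount of 0.5, no filter on low values or scaling to the upper quartile. Other genes cover 28.1% of the exon bases of B4galt2 and 57.2% of those of B4galt3. B4galt3 had 609 ± 436 in hypHSCs and 1225 ± 91.2 in qHSCs and was not called (log2 difference -2.07, SE 1.11, limma, adjusted p = 0.14), its value in hypHSC 5 (7.56) lying far from the 364 to 1142 of the others. B4galt1 and B4galt4 were not called, and neither were B3galt4, B3galt6 and B4galt7, the last pair of which build the linkage region of proteoglycans.

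Among the 7 tested GlcNAc-transferases that extend poly-N-acetyllactosamine and related chains, B3gnt5, the synthase of lacto-series glycolipids, was called higher. It had 99.7, 305, 77.3, 119 and 425 in hypHSCs and 0 in 4 of the 5 qHSC libraries, with 12.0 in qHSC 5, and a log2 fold change of 6.63 (SE 0.85, limma, adjusted p = 8.3e-05). B3gnt9 was called lower, from 952 ± 275 to 373 ± 169 normalized counts (log2 fold change -1.503, SE 0.46, limma, adjusted p = 0.018), with 1 overlapping library on each side. B3gnt2, the main poly-N-acetyllactosamine synthase, was not called, nor were B3gnt3 (log2 difference 1.74, SE 0.80, limma, adjusted p = 0.096), B3gnt4, B3gnt8 and B3gntl1 (log2 difference -0.97, SE 0.56, limma, adjusted p = 0.17). B3gnt3 passed the test without hypHSC 4 (2.16) or hypHSC 5 (2.19) and with both count models. All exon bases of B3gnt4 and 52.9% of those of B3gnt2 lie within other genes.

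All 6 enzymes of alpha2,3 linkage were tested, with 3 called lower and none higher, where 21.7% and 17.8% of all genes were. St3gal4, which caps N-acetyllactosamine, fell from 2771 ± 459 to 668 ± 173 normalized counts without overlap (log2 fold change -2.07, SE 0.22, limma, adjusted p = 1.9e-05), 30.4% of its exon bases lying within other genes. St3gal1 and St3gal2, which sialylate the O-glycan core, fell from 816 ± 197 and 245 ± 93.2 to 364 ± 261 and 101 ± 52.6. Their log2 fold changes were -1.51 (SE 0.52, limma, adjusted p = 0.031) and -1.43 (SE 0.52, limma, adjusted p = 0.041), and both calls were lost without hypHSC 4 (-1.18 and -1.37), without hypHSC 5 (-1.17 and -0.99), and without qHSC 1, 2 or 3, and that of St3gal2 also without qHSC 5 (-1.40). St3gal5, the synthase of ganglioside GM3, and St3gal3 were not called, nor was St3gal6 (log2 difference 0.86, SE 0.65, limma, adjusted p = 0.3). The summed level of the 6 genes was 27.6 FPKM ± 2.67 in qHSCs and 11.3 FPKM ± 2.69 in hypHSCs.

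Of the alpha2,6 enzymes, St6galnac2, which sialylates the first sugar of O-glycans, had 1502, 1806, 1408, 1944 and 2329.5 in qHSCs and 68.7, 79.7, 63.2, 3.15 and 0 in hypHSCs, where hypHSC 4 and 5 were the lowest. The mean was 41.9-fold lower in hypHSCs and the log2 fold change -6.69 (SE 1.12, limma, adjusted p = 5.4e-04). It made up 75.7% ± 4.65 of the summed FPKM of its role in qHSCs. St6galnac4, which adds sialic acid to the already sialylated core, was called higher, at 619 ± 404 normalized counts against 191 ± 10.9 (log2 fold change 1.33, SE 0.51, limma, adjusted p = 0.048), but hypHSC 5 lay below every qHSC library and leaving out any of 8 libraries ended the call. St6gal1, the main enzyme of alpha2,6 capping on N-glycans, was not called (95% interval of the log2 difference -0.90 to 0.44). St6galnac6 was not called (log2 difference -0.41, SE 0.72, limma, adjusted p = 0.66).

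Both alpha2,8 enzymes that could be tested rose, where 17.8% of all genes were called higher. The role summed to 0.0248 FPKM in qHSCs, so its genes could pass the filter almost only through hypHSCs. A rise of those tested was thus nearly given in advance. St8sia4, one of the polysialyltransferases, had 143, 239, 225, 217 and 203 in hypHSC 1 to 5 and 11.8, 0, 7.09, 2.57 and 0 in qHSC 1 to 5, a 47.9-fold higher mean and a log2 fold change of 5.96 (SE 0.75, limma, adjusted p = 7.1e-05). The groups did not overlap, hypHSC 1 being the lowest of its group. St8sia6 was called higher at a mean of 49.5 normalized counts in hypHSCs (log2 fold change 4.07, SE 0.93, limma, adjusted p = 0.0041), with hypHSC 4 under qHSC 1. Per length these were low genes, at 0.245 and 0.150 FPKM in hypHSCs.

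Of 5 tested fucosyltransferases, 1 rose and 2 fell, beside 17.8% and 21.7% of all genes tested. Fut7, the leukocyte enzyme that completes sialyl Lewis x on selectin ligands, had 753, 1111, 849.9, 342 and 22.7 in hypHSCs and 13.6, 42.6, 0, 2.57 and 0 in qHSCs. The groups overlapped through hypHSC 5 (22.7) and qHSC 2 (42.6), and the log2 fold change was 6.25 (SE 1.29, limma, adjusted p = 0.0021) with a mean 52.4-fold higher in hypHSCs. Fut8, which adds the core fucose of N-glycans, fell from 1519 ± 302 to 308 ± 71.3 normalized counts with no overlap (log2 fold change -2.304, SE 0.22, limma, adjusted p = 1.2e-05). Fut10 (Pofut3 in the annotation) had 227, 331, 169, 179.7 and 212 in qHSCs and 33.7, 11.4, 64, 30.4 and 0 in hypHSCs, also without overlap, and a log2 fold change of -3.82 (SE 0.95, limma, adjusted p = 0.0066). Fut4, a Lewis x enzyme of myeloid cells, was not called (log2 difference -0.71, SE 0.78, limma, adjusted p = 0.48) and neither was Fut11. Fut8 held 70.6% ± 5.91 of the summed FPKM of fucosyltransferases in qHSCs, and Fut7 65.6% ± 31.2 in hypHSCs, a share that ran from 10.4% to 84.7% between libraries.

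The remaining sulfotransferases and hyaluronan synthases were scarce. Chst1, the keratan sulfate 6-O-sulfotransferase, had 88.7, 4.26, 56.7, 98.4 and 89.9 in qHSCs and 32.3, 0, 0, 0 and 0 in hypHSCs. Of the hypHSC libraries 4 were at 0, hypHSC 1 lay above qHSC 2, and the call (log2 fold change -4.56, SE 1.19, limma, adjusted p = 0.0082) was not made by edgeR or DESeq2. Chst2, a GlcNAc 6-O-sulfotransferase, was not called (log2 difference -0.803, SE 0.53, limma, adjusted p = 0.23). Of the hyaluronan synthases, Has1 was tested and not called, with 0, 24.9, 1.66, 47.2 and 124 in hypHSCs and 8.15, 11.1, 18.9, 0 and 2.25 in qHSCs, and its interval of the log2 difference ran from -1.82 to 4.16. Has2, the main synthase of activated fibroblasts, had at most 10.8 normalized counts in hypHSCs and none in qHSCs, and Has3 at most 24.2 and 15.4.

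The hypHSC libraries differed among themselves more than the qHSC libraries. The median between-library SD of the log2 values of the tested enzymes was 1.02 in hypHSCs and 0.49 in qHSCs, against 0.73 and 0.34 for all genes tested. Against the mean of hypHSC 1 to 3, and over 70 enzymes with enough reads, hypHSC 5 was lower by at least 1 on the log2 scale for 32 and higher for 8, and hypHSC 4 was lower for 24 and higher for 3. The median difference of hypHSC 5 was -0.80 for the enzymes and -0.34 for all genes, and that of hypHSC 4 was -0.51 and -0.13. Among the 21 genes called higher, hypHSC 5 was the lowest hypHSC library for 13.

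The difference varied with the base composition of the exons. In hypHSC 5 the median difference was -0.48 for 26 enzymes under 50% GC and -1.57 for 44 at 50% GC or more, and in hypHSC 4 it was -0.09 and -0.96. Across these 70 genes of single libraries, which are not independent replicates, the correlation with GC content was r = -0.37 (Spearman rho = -0.43) in hypHSC 5 and r = -0.37 (rho = -0.47) in hypHSC 4, and across all 14420 genes it was r = -0.31 and r = -0.22. Of these 70 genes the median GC content was 50.3% for 19 called rises, 52.0% for 18 called falls and 52.2% for 33 not called. A correction of each library for its mean trend with exon GC content kept 40 of the 41 calls. It leaves departures of single genes from that trend in place, so the part of base composition in single results was not tested.

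**Figure D4:**
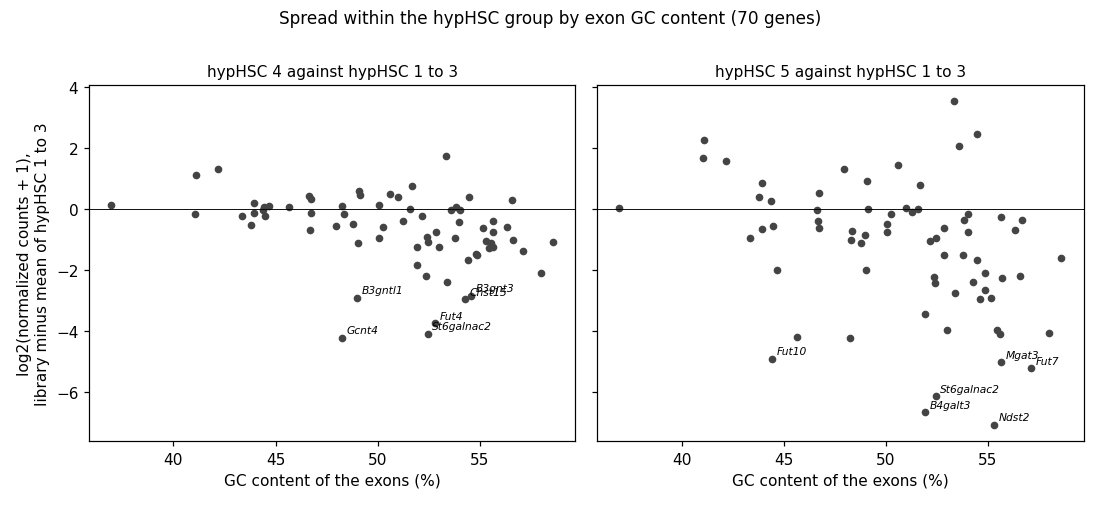
Difference of hypHSC 4 (left) and hypHSC 5 (right) from the mean of hypHSC 1 to 3, in log2(normalized count + 1), against the GC content of the exons in percent, 1 point per gene for 70 genes. In hypHSC 5 most genes at 50% GC or more lie below 0, with a median of -1.57.

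Without hypHSC 4 and 5 together, 39 genes were called, 36 of them among the 41. Without qHSC 1 and 4, which held the most macrophage marker reads of their group, 33 were called (18 higher, 15 lower), 32 of them among the 41, so that 9 calls were lost. Of the 8 largest rises named by library, 6 were then larger and 2 smaller: Gcnt1 went from 8.202 to 9.29, B3gnt5 from 6.63 to 6.14 and Galnt9 from 7.63 to 7.39. Among the 21 genes called higher, the highest qHSC library was qHSC 4 for 7, qHSC 3 for 6, qHSC 1 for 5, qHSC 5 for 2 and qHSC 2 for 1. Gcnt1, Galnt6, B4galt6, Mgat4a and Galnt3 were among those highest in qHSC 4. Summed over these 21 genes, a sum carried by the abundant ones, the qHSC libraries had 1308 to 2049 normalized counts and the hypHSC libraries 6310 to 14086. Within qHSCs that sum was highest in qHSC 3 (2049), against 1973 in qHSC 4 and 1774 in qHSC 1.

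**Figure D5:**
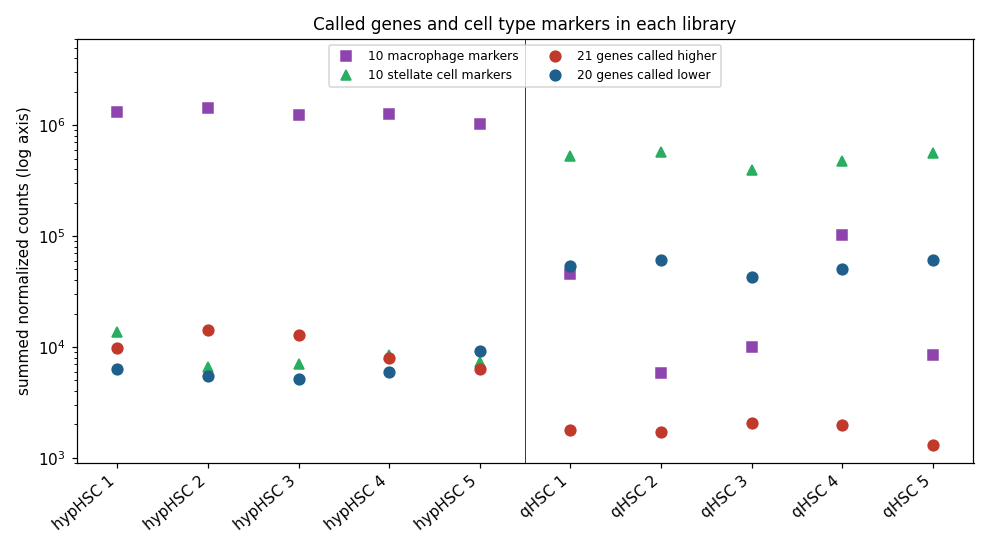
Summed normalized counts (log axis) in each library of the 21 enzymes called higher, the 20 called lower, 10 macrophage markers and 10 stellate cell markers. The macrophage sum is 1019761 or more in every hypHSC library and differs between qHSC libraries, being highest in qHSC 4.

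Genes that serve these enzymes were counted in the same fit. Of 24 tested genes of sugar nucleotide supply and sulfate activation, 3 were called higher and 5 lower, a share below the 39.5% of all genes tested. Papss2, which makes the sulfate donor used by all sulfotransferases, fell from 3918 ± 1146 to 292 ± 109.6 normalized counts (log2 fold change -3.79, SE 0.31, limma, adjusted p = 3.1e-06), while Papss1, its isoenzyme, was not called. Slc35a1, the Golgi transporter of CMP-sialic acid, and Slc35d1, which carries UDP-GlcUA and UDP-GalNAc precursors of chondroitin, had log2 fold changes of -1.48 and -2.77. Cmas, which makes CMP-sialic acid, rose from 230.3 ± 44.9 to 1337 ± 698 (log2 fold change 2.43, SE 0.30, limma, adjusted p = 6.4e-05).

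Of 14 tested glycosaminoglycan enzymes with other names, 2 rose and 4 fell, a share near the 39.5% of all genes. Xylt1, which starts the chain on the core protein, rose from 0.716 ± 1.18 to 84.6 ± 26.4 (log2 fold change 5.801, SE 0.58, limma, adjusted p = 1.4e-05). It had at most 2.72 normalized counts in any qHSC library, passed the filter through hypHSCs alone and so had to differ. Sulf2, which removes 6-O-sulfates outside the cell, rose from 24.9 ± 17 to 1087 ± 364 (log2 fold change 5.72, SE 0.59, limma, adjusted p = 1.7e-05). Chpf, a partner of the chondroitin polymerase, had a log2 fold change of -3.38 and Pxylp1, a phosphatase of the linkage region, of -2.32. Of 16 tested enzymes of other glycans, 3 rose and 5 fell, where 39.5% of all genes were called. The widest were B3galnt1, the globoside synthase (log2 fold change 6.22), Neu3, a sialidase of gangliosides (-4.63), Mfng, which modifies Notch (4.13), and A4galt, the Gb3 synthase (-3.204).

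The proteoglycan core proteins that carry the chains were called in both directions, 3 higher and 7 lower of 16 tested, where 39.5% of all genes were called. The widest were falls, with log2 fold changes of -5.38 for Tgfbr3 (betaglycan), -4.72 for Dcn (decorin), -4.71 for Bgn (biglycan) and -4.49 for Gpc4, a glypican. Sdc2, Gpc6 and Hspg2 fell as well. Sdc1, Gpc1 and Srgn rose. Of 8 tested genes of hyaluronan binding and breakdown, 3 were called higher, namely Cd44, the hyaluronan receptor (log2 fold change 3.01), Hmmr (2.84) and Stab2, which is also among the endothelial markers (1.92), and none lower, a share near the 39.5% of all genes.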

How the data were processed

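Per the labels and the study's methods, RNA from sorted cells was reverse-transcribed from oligo-dT primers, amplified and sequenced as unstranded paired reads of 59 bases. The authors aligned reads with STAR to mm39, counted them per gene with featureCounts (Subread 1.5.0) on the Mouse FAST DB annotation and normalized with DESeq2. The deposited signal values are these normalized counts, reads divided by a size factor of 0.661 to 1.33 per library. Whole reads were recovered by undoing that division, for 100% of values, and depth is given as those reads. Of the entries in the table, 25233 had a symbol and were used. The others held 8.98% to 29.1% of reads.

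Genes that reached 10 normalized counts in 5 or more libraries (14630) were tested with limma 3.58.1 (R 4.3.3, trended eBayes, 2-sided) on log2(normalized count + 1) with Benjamini-Hochberg adjustment, all 10 libraries entering without covariates. FPKM were computed from the recovered reads and summed exon lengths of the GENCODE annotation, which also gave GC content and exon overlaps. It is not the annotation on which the reads were counted, so these FPKM differ from those the study reported. A match to it was found for 23722 of the 25233 entries with a symbol, and only these have an FPKM. Role sums, shares and lists have no test. The called genes with the 8 largest rises and 8 largest falls without overlap, and with a mean of at least 100, and the 3 highest FPKM per group are given by library, with further examples by role. The count models edgeR 4.0.16 and DESeq2 1.42.0 on the recovered reads, other scalings, filters and pseudocounts, and fits without single libraries were alternatives. The members and lists were chosen with earlier results of these data known. Promoter letters came from RefSeq, placed on GRCm39 by exact match. The test was checked on simulated counts with the same dispersion in both groups. That check does not cover the wider spread between the hypHSC libraries.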

Additional observations from a re-analysis of the deposited data

Results flagged for a closer look

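Within each group of 5 libraries, 11 of 155 sets of values held a library whose gap to its nearest neighbour was wide for the range of the group, where chance gives about 1 in 20 (7.75 expected), and 5 of the 11 were in hypHSC 5. The low values of hypHSC 5 were 90.75 normalized counts for B3gnt9, 7.56 for B4galt3, 25.71 for Galnt4, 52.94 for Galnt9 and 3.02 for Ndst2, where the other hypHSC libraries lay at 376.83 or more, 364.04 or more, 340.92 or more, 266.47 or more and 261.23 or more. Chst7 was at 0 in hypHSC 4, against 10.78 to 31.06 in the others. Chst1 had 32.34 in hypHSC 1 and 0 in the other hypHSC libraries, and 4.26 in qHSC 2 against 56.69 to 98.4 in the other qHSC libraries. In qHSC 5, B3gnt5 had 11.99, with 0 in the others, and Galnt1 had 1571.25, with 1174.11 to 1277 in the others. Galnt14 had 471.59 in qHSC 3, against 920.47 to 1153.15.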

How the results depend on the processing

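Over the alternatives the number of genes called stayed within 1.5 times the 41 reported, and leaving out single libraries gave 35 to 41 (19 to 24 higher, 15 to 21 lower). Of the 41, 34 were called in every fit without a single library and 28 in every setting that tested them. The filter on a mean of 100 normalized counts tested only 31 of the 41. None of the 41 changed sign in any setting that tested it. Scaling on 3 reference genes, which moved the median of all genes to -1.13, gave 16 higher and 39 lower. Without qHSC 1 and 4, chosen after seeing the data as was the GC correction, 33 were called. Replicate numbers did not pair the libraries (same-number r of 0.00815 to 0.129, 2 of 10 libraries correlating best with their own number), and the replicate block gave 39 calls (20 higher, 19 lower), without Galnt4 and Gcnt7.

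Sign changes were of genes not called (12 on 3 reference genes, 6 without hypHSC 5, among them Ndst2, then called). Of the genes named with values, on 3 reference genes Mgat2 was -0.23, St3gal6 -0.071 and Hs2st1 -0.62. Hs2st1 was -0.041 at equal totals and -0.10 in the 12-week libraries. Without hypHSC 4 and 5, Chst12 was 0.44, St6galnac6 0.63, St6gal1 0.11, Fut4 0.35 and Extl3 0.31. Extl3 was 0.023 by the upper quartile, and St6galnac6 0.094 by edgeR and 0.055 by DESeq2. Without single libraries Chst12 ran from -0.90 to 0.17, St6galnac6 from -0.71 to 0.32 and Extl3 from -0.21 to 0.072. The causes were not tested. Depth limits the 22 genes with at most 3 reads in every library.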
